A study of Mus musculus with 2 samples.

Results

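The 10 genes described here encode peroxiredoxins 1 to 6 (Prdx1, Prdx2, Prdx3, Prdx4, Prdx5 and Prdx6), the superoxide dismutases Sod1 and Sod2, the glutathione peroxidase Gpx1 and catalase (Cat). They were chosen by symbol, with no rule on a measured value, from the 43346 genes with a row in the deposited gene tables. Earlier results of these data were known when they were chosen. RNA came from skeletal muscle of newborn (postnatal day 0) mice of the strain B6NCrl, a C57BL/6N line. The study made 2 libraries from 13 pg of total RNA each, an amount that the labels set equal to 1 cell, taken from bulk tissue with a full-length cDNA protocol of the Smart-seq kind and with added spike-in RNA. The labels call them biological replicates 1 and 2, each from an organ portion of 1 pup, and they list 1 tissue record for each with a donor entry in common. No allele, treatment or sex is given, and both libraries form 1 group. The question asked of the genes is therefore how cytosolic and mitochondrial enzymes compared at birth within each library, and how closely the levels of both libraries matched. Differences between animals, tissue portions and libraries cannot be told apart in the spread over n = 2, and no p-value is given because an exact two-sided sign-flip test of 2 values cannot go below 0.5.

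Muscle fibres make superoxide in their respiratory chain and at membrane oxidases. Superoxide dismutases turn superoxide into hydrogen peroxide, Sod1 mainly in the cytosol with copper and zinc, and Sod2 in the mitochondrial matrix with manganese. Peroxiredoxins, glutathione peroxidases and catalase then remove the peroxide. Peroxiredoxins do so with a reactive cysteine that most of them recycle through thioredoxin, glutathione peroxidases use glutathione, and catalase works in peroxisomes without a reductant of this kind. Prdx1, Prdx2 and Prdx6 are mainly cytosolic, Prdx3 is mitochondrial, Prdx4 resides in the endoplasmic reticulum, and Prdx5 is found in mitochondria but also in the cytosol and peroxisomes.

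All 10 genes were detected in both libraries, detection meaning 1 TPM or more and 5 expected counts or more. TPM is the length-adjusted share of a gene among all transcripts, on a scale with a fixed sum. The same was true of 4356 of the 43346 genes with a row (10%) and of 18.2% of the 21474 genes annotated as protein_coding. By mean level every one of the 10 lay above at least 95.3% of all genes with a row, the lowest being Sod2 and the highest Sod1, which lay above 99.7%. Most of these genes were not detected, as 6350 were in replicate 1 and 6949 in replicate 2. Sod2 ranked 2271st in replicate 1 and 2066th in replicate 2. Replicate 1 held 32103374 expected counts in all and replicate 2 held 38977618, of which the 10 genes received 69110 and 88625. Together they made up 0.286% of TPM in replicate 1 and 0.278% in replicate 2. The spike-in share of TPM was 9.44% in replicate 1 and 4.54% in replicate 2. Counts per gene were high, from 1673 to 16300, so that the interval the authors gave for each TPM was narrow beside the difference between the libraries for the genes that differed most.

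Sod1 had the highest mean of the 10 genes. It lies at chr16:90220754-90226329 on the plus strand of GRCm38, the assembly also called mm10. Its level was 1221 TPM in replicate 1 (16300 counts) and 462 TPM in replicate 2 (7891 counts), a mean of 841 ± 537 (SD, n = 2). Replicate 1 was 2.65-fold higher, and Sod1 ranked 87th among all genes there and 309th in replicate 2. The authors' credibility bounds for its TPM were 1177 to 1213 in replicate 1 and 444 to 464 in replicate 2. These bounds belong to the authors' posterior estimate, whose mean was 1195 TPM in replicate 1, and the deposited TPM of that library lay just above them. They do not cover the spread between libraries, which was far wider.

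Sod2, its mitochondrial counterpart, lies at chr17:13006846-13040063 on the plus strand and had the lowest mean of the 10. It stood at 53.9 TPM in replicate 1 (4898 counts) and 56.8 TPM in replicate 2 (6609 counts), a mean of 55.3 ± 2.04. The libraries differed by 1.05-fold. All of its reads were assigned to Sod2-201, a transcript of 3824 bases in the deposited files and of 5861 bases in GENCODE M21. With the longer length Sod2 would stand at 34.8 and 36.7 TPM, still the lowest of the 10. In the files the transcript of Sod1 has 646 bases, so the size of the difference between both genes depends strongly on the adjustment for length. By expected counts Sod1 was 3.33-fold higher than Sod2 in replicate 1 and 1.19-fold higher in replicate 2, against 22.7-fold and 8.13-fold by TPM.

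The sequences upstream of both dismutase genes and of a cytosolic and a mitochondrial peroxiredoxin gene are shown because these pairs carry the comparison between compartments. Each is the 100 bases just before the first annotated exon that overlaps the RefSeq promoter entry, which for Sod2 is not the first of the gene. They are read in the direction of the gene from the RefSeq promoter table (GRCm38.p6). Capitals mark the GC box (GGGCGG), the TATA box (TATAAA) and the core of the antioxidant response element (TGACNNNGC), searched on both strands, so that a match on the other strand appears as its reverse complement.
Sod1, chr16:90220654-90220753, plus strand: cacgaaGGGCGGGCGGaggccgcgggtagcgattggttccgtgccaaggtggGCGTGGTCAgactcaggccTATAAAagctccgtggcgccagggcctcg
Sod2, chr17:13007717-13007816, plus strand: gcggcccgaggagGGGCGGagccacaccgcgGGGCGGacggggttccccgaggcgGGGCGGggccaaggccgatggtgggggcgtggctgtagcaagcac
Prdx1, chr4:116685444-116685543, plus strand: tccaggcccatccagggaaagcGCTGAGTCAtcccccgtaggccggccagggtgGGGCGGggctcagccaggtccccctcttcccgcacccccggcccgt
Prdx3, chr19:60874557-60874656, minus strand: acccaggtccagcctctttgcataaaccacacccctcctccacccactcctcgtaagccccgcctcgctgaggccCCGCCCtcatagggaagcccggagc

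The Sod1 window held 2 overlapping GC boxes, 1 response element core and 1 TATA box. The Sod2 window lies inside the annotated span of the gene, before its main transcript, and held 3 GC boxes with neither of the other motifs. The Prdx1 window held 1 response element core and 1 GC box, and the Prdx3 window held 1 GC box. Over the 250 bases before the RefSeq start, 9 of the 10 genes could be matched, Prdx6 being without an entry. There the response element core was present in Sod1 and Prdx1 only, 2 of 9 genes against 10.2% of 32851 promoters. A GC box was present in 7 of 9 against 32.7%, a TATA box in 3 of 9 (Prdx1, Prdx3 and Sod1) against 12.4%, and CCAAT, not capitalised above, in 4 of 9 against 33.8%. Such matches describe letters and not sites at which a factor was measured.

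**Figure D1:**
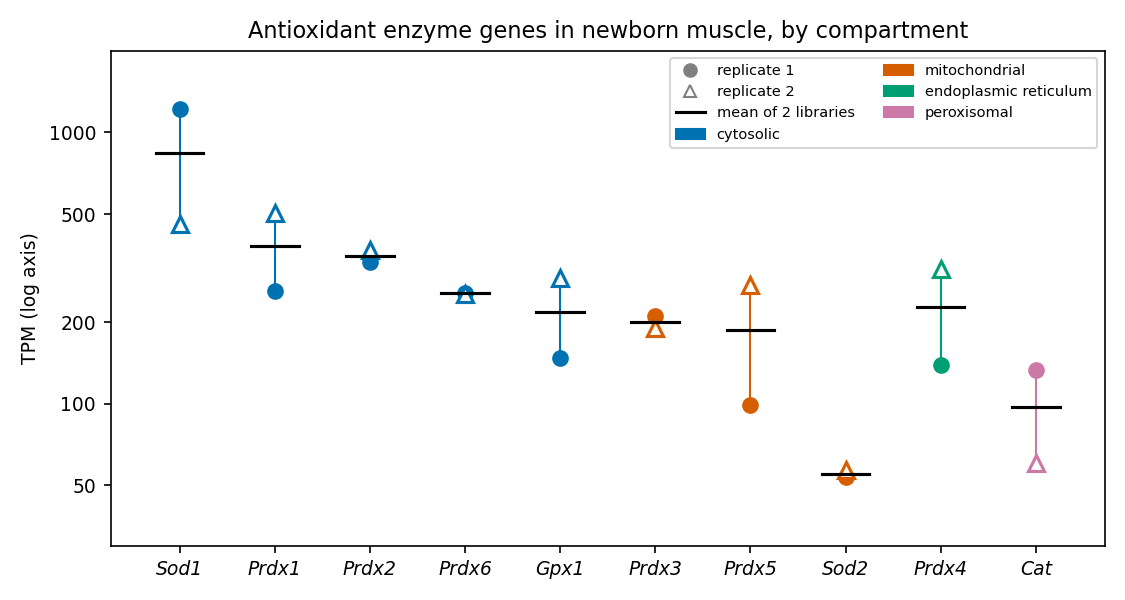
Level of the 10 genes in TPM on a log axis, grouped by compartment, with replicate 1 as filled circles, replicate 2 as open triangles and the mean of both as a bar. Sod1 had the highest mean, at 841 TPM, and Sod2 the lowest, at 55.3 TPM, while Prdx6, Prdx2, Prdx3 and Sod2 lay closest together between the libraries.

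Among the cytosolic peroxiredoxins, Prdx1 had the highest mean. It is a 2-Cys peroxiredoxin, whose peroxide-reactive cysteine forms a bond with a cysteine of a partner subunit, and lies at chr4:116685544-116700822 on the plus strand. Its level was 260 TPM in replicate 1 (8974 counts) and 504 TPM in replicate 2 (16267 counts), a mean of 382 ± 172. Replicate 2 was 1.94-fold higher, and the gene ranked 519th in replicate 1 and 285th in replicate 2.

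Prdx2, a 2-Cys peroxiredoxin best known from red blood cells, lies at chr8:84969587-84974834 on the plus strand. It stood at 334 TPM in replicate 1 (9681 counts) and 369 TPM in replicate 2 (12590 counts), a mean of 352 ± 24.9. The libraries were 1.11-fold apart, so Prdx2 was the higher of the pair in replicate 1 and Prdx1 in replicate 2. Of 10 red cell markers, the 4 globin genes were detected in both libraries and the other 6 in neither, with Epb42, Rhag and Klf1 at 0 in both. The summed level of these markers was 3292 TPM in replicate 1 and 3629 TPM in replicate 2, and their part in the level of Prdx2 was not tested. In bulk tissue of this kind, fewer cells of a type and less RNA per cell cannot be told apart.

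Prdx6, a 1-Cys peroxiredoxin that also has phospholipase activity, lies at chr1:161240112-161251219 on the minus strand. Its level was 257 TPM in replicate 1 (6420 counts) and 254 TPM in replicate 2 (8405 counts), a mean of 255 ± 2.21. At 1.01-fold it was the gene of the 10 that differed least between the libraries.

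Prdx4, the peroxiredoxin of the endoplasmic reticulum, where it takes part in protein folding, lies at chrX:155323918-155340754 on the minus strand. It stood at 139 TPM in replicate 1 (3019 counts) and 315 TPM in replicate 2 (8764 counts), a mean of 227 ± 124. Replicate 2 was 2.27-fold higher.

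Prdx3, the 2-Cys peroxiredoxin of the mitochondrial matrix, lies at chr19:60864051-60874556 on the minus strand. Its level was 211 TPM in replicate 1 (7096 counts) and 190 TPM in replicate 2 (8171 counts), a mean of 200.25 ± 15.0. It was the mitochondrial gene with the highest mean, and the libraries were 1.11-fold apart.

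Prdx5, an atypical 2-Cys peroxiredoxin that forms its bond within 1 subunit, lies on the same chromosome at chr19:6906697-6910106, minus strand. It stood at 99.4 TPM in replicate 1 (1673 counts) and 275 TPM in replicate 2 (8017 counts), a mean of 187 ± 124. At 2.77-fold it was the gene of the 10 that differed most between the libraries. The 5' ends of Prdx5 and of Trmt112, a protein-coding gene on the opposite strand, overlap, with 360 bases of the transcript Prdx5-201 shared. Trmt112 had 1176 counts in replicate 1 and 505 in replicate 2. That equals 70.3% and 6.30% of the counts of Prdx5. Whether strand was used in counting is not given in the sources used here, so reads from the shared bases cannot be told apart.

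The stretches around the peroxide-reactive cysteine of the 4 typical 2-Cys peroxiredoxins are printed because they show how alike the cytosolic, reticular and mitochondrial forms are at the active site. Each has 39 bases of coding sequence from GENCODE M21 transcripts on GRCm38, with the cysteine codon in capitals.
Prdx1, chr4:116691805-116691843, plus strand: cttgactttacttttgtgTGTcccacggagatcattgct
Prdx2, chr8:84970465-84970503, plus strand: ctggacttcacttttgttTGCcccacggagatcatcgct
Prdx4, chrX:155332442-155334845, minus strand: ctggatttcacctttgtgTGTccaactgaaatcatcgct
Prdx3, chr19:60870109-60871427, minus strand: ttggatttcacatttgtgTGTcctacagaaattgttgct

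The stretches of Prdx4 and Prdx3 are joined across an intron. Compared with Prdx1, Prdx2 differed at 5 of the 39 bases, Prdx4 at 8 and Prdx3 at 10. Over the whole coding sequence, Prdx1 was 69.9% identical to Prdx2, 69.3% to Prdx4 and 69.7% to Prdx3 at aligned bases. Bases opposite a gap are left out of this measure. By it Prdx4 and Prdx3 were 64.1% identical, and so were Sod1 and Sod2. Beside Trmt112, copies of at least 300 bases and 95% identity among the transcripts in the files were the pseudogenes Gm7204 and Gm21399 for Prdx1, Tdpx-ps1 for Prdx2 and Gm8566 for Sod1. Gm8566 had 150 counts in replicate 1 and 57 in replicate 2, 0.920% and 0.722% of those of Sod1. The copies of Prdx1 and of Prdx2 held at most 0.473% of the counts of their gene.

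Gpx1, a selenium enzyme of the cytosol that is also found in mitochondria, lies at chr9:108338903-108340343 on the plus strand. Its level was 147 TPM in replicate 1 (2866 counts) and 290 TPM in replicate 2 (7162 counts), a mean of 219 ± 101. Replicate 2 was 1.97-fold higher.

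Cat lies at chr2:103453849-103485160 on the minus strand. It stood at 133 TPM in replicate 1 (8184 counts) and 60.4 TPM in replicate 2 (4748 counts), a mean of 96.9 ± 51.6. Replicate 1 was 2.21-fold higher, the same direction as Sod1.

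Of the 10 genes, 4 were higher in replicate 1 and 6 in replicate 2, and 4 differed by more than 2-fold, Sod1 and Cat being higher in replicate 1 and Prdx4 and Prdx5 in replicate 2. Among genes with at least 5 counts in either library, 74.7% differed by more than 2-fold, among those with at least 10 counts in both 50.5% did, and among the 2229 genes with a mean of at least 50 TPM 42.7% did. The share among the 10 was thus near that of genes of like level. These directions hold for TPM. When the libraries were instead scaled on the summed counts of the spike-ins, every log2 ratio of replicate 1 to replicate 2 changed by -1.13, and 7 of the 10 were over 2-fold higher in replicate 2 and 0 in replicate 1. Among the genes with a mean of at least 50 TPM, 54.2% were then over 2-fold higher in replicate 2 and 7.94% in replicate 1. Sod1 then had a log2 ratio of 0.27, Cat 0.01 and Prdx3 -0.98, and Prdx3 and Prdx6 changed direction. Prdx6 also changed direction, at ratios near 0, with edgeR's scaling of counts and when ratios were centred on the median gene, and Sod2 did so when TPM was rescaled without spike-ins. Adipocyte markers had a summed level of 2812 TPM in replicate 1 and 1080 TPM in replicate 2, with 5 of 6 detected in both libraries and none at 0. Like Sod1 and Cat, 5 of the 6 were higher in replicate 1, by 1.09-fold for Lpl and 1.22-fold for Fabp4 and by 4.42-fold to 27.2-fold for Adipoq, Cidec and Cfd, while Plin1 was higher in replicate 2. This direction was not particular to adipocyte markers. Of the fibroblast markers, 5 were higher in replicate 1 and 3 in replicate 2, of the macrophage markers 4 and 3, and of the red cell markers 4 and 2. Skeletal muscle markers had 3 and 5. All these directions are by TPM. The part of any of these markers in the levels of Sod1 and Cat was not tested.

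The 5 cytosolic genes, Prdx1, Prdx2, Prdx6, Sod1 and Gpx1, outweighed the 3 mitochondrial genes, Prdx3, Prdx5 and Sod2, in both libraries. Their TPM summed to 2220 in replicate 1 and 1879 in replicate 2, against 364 and 521 for the mitochondrial genes. The cytosolic share of both sums was 85.9% in replicate 1 and 78.3% in replicate 2, a mean of 82.1% ± 5.39. Per gene, the cytosolic mean was 3.66-fold the mitochondrial mean in replicate 1 and 2.16-fold in replicate 2. Prdx6 is counted in these sums with all of its transcripts, of which those annotated as coding held 9.14% and 8.13% of its TPM. The cytosolic share by coding transcripts alone was not computed.

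The difference between the libraries in this share was smaller without Sod1 and also without Prdx5. Sod1 alone held 42.8% of the TPM of the 10 genes in replicate 1 and 16.6% in replicate 2. Without Sod1 the share was 73.3% in replicate 1 and 73.1% in replicate 2, an alternative added after the values were seen. Among peroxiredoxins alone, the 3 cytosolic genes held 73.3% and 70.8% of the TPM of the 5 cytosolic and mitochondrial ones. Without Prdx5 the share was 89.3% in replicate 1 and 88.4% in replicate 2. Counting Prdx5, which is not confined to mitochondria, with the cytosolic genes gave 89.8% and 89.7%. Prdx4 of the endoplasmic reticulum held 4.86% of the TPM of the 10 genes in replicate 1 and 11.3% in replicate 2. Cat held 4.67% and 2.18%.

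The 6 peroxiredoxins together held 45.5% of the TPM of the 10 genes in replicate 1 and 68.7% in replicate 2. Within the family the order was not the same in both libraries. Prdx2 led in replicate 1, with 25.7% of the family's TPM against 20.0% for Prdx1 and 19.7% for Prdx6. Prdx1 led in replicate 2, with 26.5% against 19.4% for Prdx2 and 16.5% for Prdx4. Prdx5 had the smallest share in replicate 1, at 7.64%, and Prdx3 in replicate 2, at 9.95%. No peroxiredoxin held a majority of the family in either library.

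Enzymes with like activity were then compared within each library as the log2 ratio of TPM + 1. Here a ratio exceeds the spread if it had the same sign in both libraries and its mean was larger than 2 SD. Sod1 was above Sod2 by 4.48 in replicate 1 and 3.001 in replicate 2, a mean of 3.74 ± 1.04, which exceeded the spread. On counts without length adjustment the mean ratio was 1.00 and no longer exceeded it. Prdx2 was above Prdx3 by 0.66 and 0.96, a mean of 0.81 ± 0.21, which exceeded the spread.

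Prdx1 was above Prdx3 in both libraries, by 0.30 and 1.41, but the mean of 0.85 ± 0.78 did not exceed the spread. Prdx6 was above Prdx5 by 1.36 in replicate 1 and below it in replicate 2 at -0.12, so that pair had no common order. Gpx1 and Cat, which both remove hydrogen peroxide, had a ratio of 0.14 in replicate 1 and 2.24 in replicate 2. The mean of 1.19 ± 1.49 did not exceed the spread, and on counts it was -0.46. Gpx1 and Cat were thus nearly level in replicate 1, while Gpx1 was 4.80-fold higher in replicate 2.

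**Figure D2:**
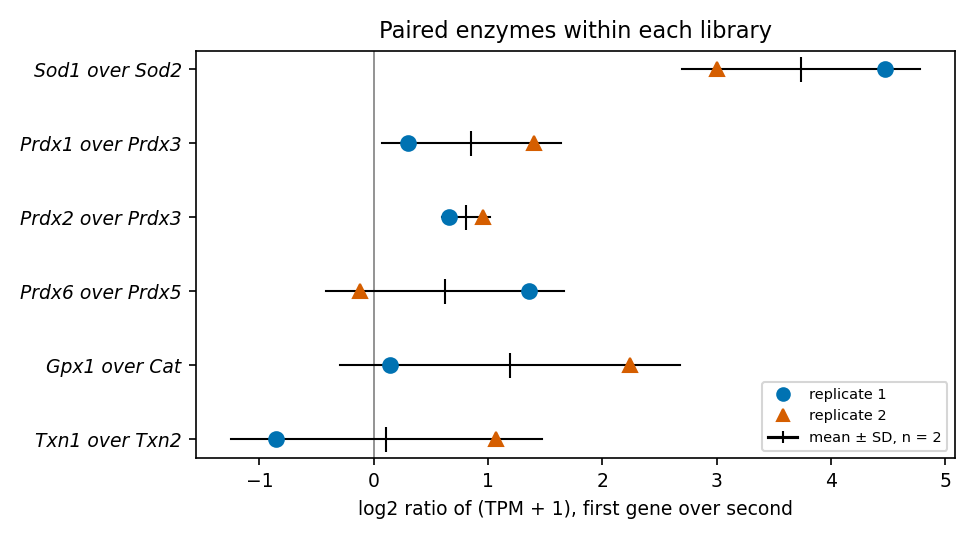
Log2 ratio of TPM + 1 of paired enzymes within each library, with replicate 1 as circles, replicate 2 as triangles and the mean ± SD (n = 2) as a line with a tick. Sod1 over Sod2 and Prdx2 over Prdx3 lie to the right of 0 by more than 2 SD, and the other 4 pairs do not.

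All 45 pairings of the 10 genes were examined in the same way, and 35 had the same order in both libraries while 16 exceeded the spread. Of the 15 pairings of a cytosolic with a mitochondrial gene, 13 had the same order, with the cytosolic gene higher in each. In 9 of the 15 the difference exceeded the spread. The exceptions in order were Prdx6 with Prdx5 and Gpx1 with Prdx3. Prdx6 enters these pairings with all of its transcripts. By those annotated as coding alone it stood at 23.45 and 20.62 TPM, below Prdx3, Prdx5 and Sod2 in both libraries. By TPM, Sod2 was below each of the other 9 genes in both libraries, and beyond the spread for 7 of them, all but Prdx5 and Cat. This place depends on the adjustment for length. By counts Sod2 was above Prdx4, Prdx5 and Gpx1 in replicate 1 (4898 against 3019, 1673 and 2866). In replicate 2 it was above Cat (6609 against 4748). Sod1 (7891 counts) was by counts below Prdx3 (8171) and Prdx5 (8017) there. Neighbours in the order of mean level, which ran Sod1, Prdx1, Prdx2, Prdx6, Prdx4, Gpx1, Prdx3, Prdx5, Cat and Sod2, could rarely be separated. Of the 9 neighbouring pairs only 2 kept their order in both libraries, Prdx2 above Prdx6 with a mean ratio of 0.46 ± 0.11 and Cat above Sod2 with 0.69 ± 0.85, of which the first exceeded the spread. The pairings share genes and libraries and are not independent. No such counts over pairs of other genes are given here, so these describe the 10 genes only.

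Genes near to Sod1 in level, among 21473 other protein_coding genes and by Euclidean distance of log2(TPM + 1) over the 2 libraries, were Rpl19 (0.184) and Rpl8 (0.259), which encode ribosomal proteins. Rpl19 stood at 1089 and 488 TPM in replicates 1 and 2. The genes nearest to Prdx3, the mitochondrial gene of highest mean, were Rbm39 (0.0316), Ddost (0.0358) and Hspa9 (0.0588), which encode a splicing factor, a subunit of the enzyme that attaches sugars to proteins, and the mitochondrial form of the chaperone Hsp70. Hspa9 stood at 206 and 196 TPM. With 2 libraries, likeness describes the levels only.

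The transcript tables split the 10 genes into 39 transcripts, of which 23 reached 1 TPM in at least 1 library. Transcript names and types are those of GENCODE M21. Transcripts annotated as protein_coding held 91.1% of the TPM of the 10 genes in replicate 1 and 88.8% in replicate 2, a mean of 90.0% ± 1.69. Prdx3, Prdx4, Sod1, Sod2 and Cat each had all of their TPM on 1 transcript. For Prdx3, Sod1 and Sod2 it was the only transcript quantified, a coding one. Both quantified transcripts of Cat were coding. The coding share of Prdx3, Sod1, Sod2 and Cat was thus fixed in advance, and it raises the coding share of the 10 genes. No coding share over other genes is given here. Transcripts of a gene share most of their bases, so the shares of Prdx1, Prdx2, Prdx5, Prdx6 and Gpx1 are estimates of the authors' read assignment.

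Prdx6 differed from the other 9 genes in that transcripts annotated as coding held 9.14% of its TPM in replicate 1 and 8.13% in replicate 2. The largest share fell on Prdx6-208, a transcript of 1294 bases annotated as a target of nonsense-mediated decay, which destroys transcripts with an early stop codon. It held 49.6% and 49.3%. The full-length coding transcript Prdx6-202 has 2387 bases and the same start codon, and was the only coding transcript of the gene with a TPM above 0. The rest lay on transcripts annotated as processed, of which Prdx6-204 took 36.3% in replicate 1 and 15.4% in replicate 2, and Prdx6-205 took 0% and 14.7%. The level of 255 TPM for Prdx6 is therefore a sum over transcripts of which most are not annotated to make the protein. By coding transcripts alone Prdx6 stood at 23.4 TPM in replicate 1 and 20.6 TPM in replicate 2, below the level of Sod2 in both libraries.

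Prdx5 has start codons at 2 positions in its main transcripts. Prdx5-201 and Prdx5-204 begin at the upstream one, position 6909617, and the upstream start is known to give the form with the mitochondrial targeting sequence. Prdx5-203 begins at position 6908284. Transcripts with the upstream start held 46.4% of the gene's TPM in replicate 1 and 64.7% in replicate 2, a mean of 55.6% ± 13.0. Prdx5-201, which carries the overlap with Trmt112, held 19.5% in replicate 1 and 57.7% in replicate 2, or 19.3 and 159 TPM. Prdx5-203 held 53.3% and 35.1%.

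Prdx1 was divided mainly between Prdx1-204, with 52.7% and 29.4%, and Prdx1-201, with 47.0% and 62.2%. These share a start codon and differ in length, at 2294 and 636 bases. Prdx2 had 51.0% and 50.5% on Prdx2-208 and 37.2% and 28.2% on Prdx2-201. A retained-intron transcript of Prdx2, Prdx2-205, held 5.69% in replicate 1 and 15.9% in replicate 2. Gpx1 was divided between Gpx1-201, with 58.1% and 56.3%, and Gpx1-204, with 41.8% and 43.7%, nearly the same division in both libraries.

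**Figure D3:**
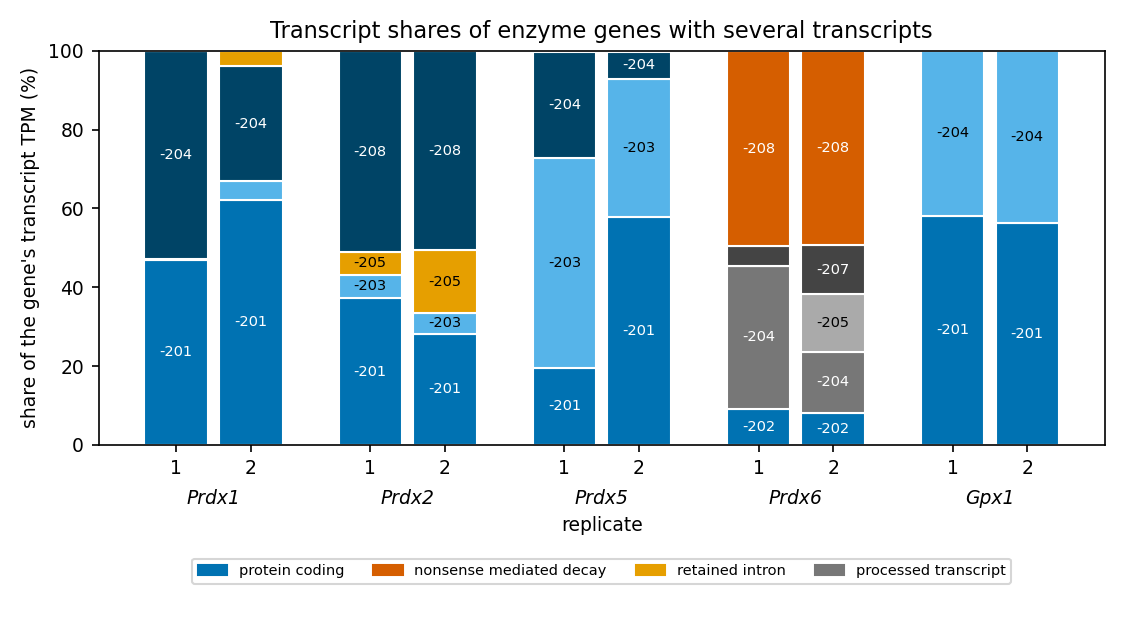
Share of each transcript in the TPM of its gene, in percent, for the 5 genes with more than 1 transcript above 1 TPM, with 1 bar for each library and colours for the annotated type (shades separate transcripts of a type). Coding transcripts (blue) held 9.14% and 8.13% of Prdx6, while Prdx6-208 held 49.6% and 49.3%.

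A wider set of 60 genes shows which partners of these enzymes were seen. Of these, 33 were detected in both libraries, against 18.2% of protein_coding genes, 6 in replicate 1 only, 4 in replicate 2 only and 17 in neither. Detection in only 1 library was common among all genes with a row, of which 6350 were detected in replicate 1, 6949 in replicate 2 and 4356 in both. None of the 10 enzyme genes fell below detection in either library. Among the 33, 11 differed by more than 2-fold between the libraries. The share was 50.5% among genes with at least 10 counts in both and 42.7% among genes with a mean of at least 50 TPM. Genes of the set detected in only 1 library are left out of this count. The whole set had 23 genes higher in replicate 1 and 27 higher in replicate 2.

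Of the 10 genes of the thioredoxin system, which recycles oxidised peroxiredoxins, 4 were detected in both libraries. Txnip, an inhibitor of thioredoxin, stood at 179 TPM in replicate 1 and 274 TPM in replicate 2 (226 ± 66.9). Cytosolic thioredoxin, Txn1, stood at 97.0 and 326 TPM (212 ± 162), and mitochondrial thioredoxin, Txn2, at 176 and 155 TPM (165 ± 14.9). The log2 ratio of Txn1 to Txn2 was -0.85 in replicate 1 and 1.07 in replicate 2, so these carriers had no common order. Sesn1, a stress-induced sestrin, stood at 60.6 and 26.6 TPM.

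The reductases that keep thioredoxin reduced were detected in replicate 2 only. Txnrd1, of the cytosol, had 1 count in replicate 1 and 294 (2.84 TPM) in replicate 2, and Txnrd2, of mitochondria, had 0 and 578 (37.7 TPM). Their log2 ratio, 0.01 in replicate 1 and -3.33 in replicate 2, cannot be read from so few counts in replicate 1. Srxn1, the sulfiredoxin that restores over-oxidised peroxiredoxins, had 2 counts in replicate 1 and 0 in replicate 2. Txnrd3, Sesn2 and Sesn3 had 0 counts in both libraries. A count of 0 in a library of 13 pg does not show that a gene was silent.

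The glutathione list, which holds the cofactor supply of Gpx1, had 11 of 18 genes detected in both libraries. Gpx4, the selenium peroxidase that protects membrane lipids, stood at 528 TPM in replicate 1 and 901 TPM in replicate 2 (715 ± 264), above Gpx1 in both. Gstp1, a glutathione transferase, stood at 264 and 275 TPM (269.6 ± 7.40). Glrx3, a glutaredoxin, stood at 111 and 213 TPM, and Mgst1, a microsomal transferase, at 124 and 170 TPM. Of the genes for glutathione synthesis, Gss had 2675 counts (73.2 TPM) in replicate 1 and 0 in replicate 2, Gclm had 1 and 0, and Gclc was at 0 in both. Gsr, the glutathione reductase, had 0 and 21 counts, and the peroxidase gene Gpx2 was at 0 in both libraries.

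In the list of superoxide and copper genes, 1 of 3 was detected in both libraries. Atox1, a copper chaperone, stood at 178 TPM in replicate 1 and 131 TPM in replicate 2 (154 ± 33.3). Ccs, which loads copper into Sod1, had 0 counts in replicate 1, where Sod1 was the higher, and 3378 counts (113 TPM) in replicate 2. Sod3, the extracellular dismutase, had 2417 counts (28.5 TPM) in replicate 1 and 0 in replicate 2. Thus Sod1 and Sod2 were detected in both libraries and Sod3 in 1.

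Of the 9 genes of the Nrf2 system and its targets, 7 were detected in both libraries. Nrf2 is the factor that acts through the antioxidant response element, and Keap1 is its inhibitor. The ferritin genes Fth1 and Ftl1 stood at 2662 and 2054 TPM in replicate 1 and at 3130 and 2357 TPM in replicate 2. Both were above Sod1 in each library. The metallothionein gene Mt1 stood at 220 and 477 TPM (348 ± 182), while Mt2 had 12 counts in replicate 1 and 5161 in replicate 2. Nfe2l2, which encodes Nrf2, stood at 43.6 and 1.72 TPM, Keap1 had 5163 counts in replicate 1 and 1 in replicate 2, and Nqo1 had 0 in both.

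NADPH is the reductant of both recycling systems. Of 8 genes listed for its supply, 5 were detected in both libraries. Tkt and Taldo1 are in this list although their enzymes do not make NADPH themselves. Idh2, the mitochondrial isocitrate dehydrogenase, stood at 289 TPM in replicate 1 and 743 TPM in replicate 2 (516 ± 321), and its cytosolic counterpart Idh1 at 99.9 and 59.5 TPM (79.7 ± 28.6). In this pair the mitochondrial gene was the higher in both libraries. Taldo1 stood at 153 and 86.9 TPM and Nnt, the mitochondrial transhydrogenase, at 138 and 59.7 TPM. Tkt had 0 counts in both libraries, G6pdx had 2294 and 2, and Pgd had 1 and 2333.

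In the list of methionine repair genes and selenoproteins, 4 of 6 were detected in both libraries. Selenow, a small selenoprotein abundant in muscle, stood at 1001 TPM in replicate 1 and 506 TPM in replicate 2 (754 ± 350), close to Sod1 in both. Selenop, which carries selenium in plasma, stood at 346 and 207 TPM, and the repair enzyme Msrb1 at 11.1 and 30.2 TPM. Msra, which repairs oxidised methionine, had 3267 counts in replicate 1 and 0 in replicate 2.

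Among 6 genes of oxidant sources, 1 was detected in both libraries. Cyba, the common membrane subunit of NADPH oxidases, stood at 127 TPM in replicate 1 and 82.8 TPM in replicate 2 (105 ± 31.0). The catalytic subunits Cybb, Nox4 and Duox1 had 0 counts in both, Duox2 had 0 and 59, and Xdh had 1238 counts in replicate 1 and 0 in replicate 2. Cyba and Cybb are also expressed by macrophages, of whose 10 markers 4 were detected in both libraries, with a summed level of 633 TPM in replicate 1 and 426 TPM in replicate 2 and with Adgre1, Fcgr1 and Cx3cr1 at 0. Their part in the level of Cyba was not tested. All 8 skeletal muscle markers were detected in both libraries, with a summed level of 99945 and 109808 TPM, as the tissue label says. Of 8 fibroblast markers 7 were detected in both libraries, and the 8 and summed to 7371 and 5034 TPM.

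**Figure D4:**
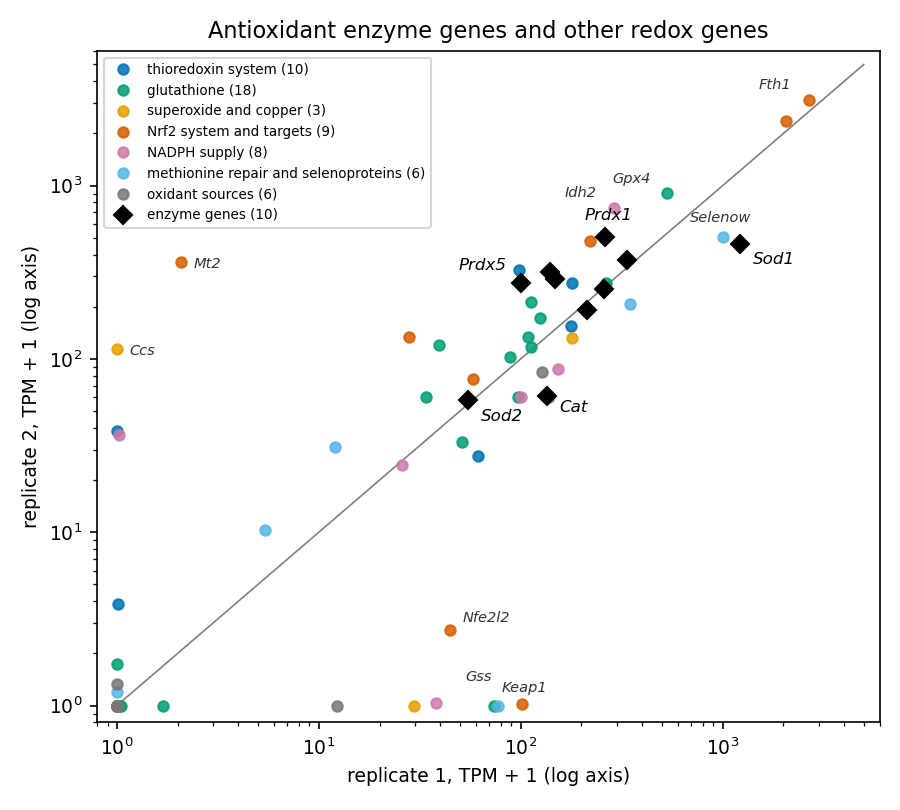
TPM + 1 in replicate 1 (horizontal) and replicate 2 (vertical) on log axes for the 10 enzyme genes (black diamonds) and the 60 genes of 7 redox lists (coloured circles), with the line of equal level. All 10 enzyme genes lie above 50 TPM in both libraries and at most 2.77-fold from the line, while 10 of the 60 were detected in only 1 library. Detection in only 1 library was also common among all genes with a row.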

How the data were processed

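The authors deposited gene and transcript tables for both libraries. Expected counts were deposited as estimated reads per gene, not normalized, with column names of RSEM per the file headers. The deposited TPM values are length-adjusted by the authors and scaled to a fixed sum over all rows, spike-ins included. The deposited bounds of each TPM are a signal of the same scale. Per the descriptions deposited with the files, mm10 and GENCODE M4 were used. No aligner, aligner version or use of strand is given in the sources used here. The authors' percent of each transcript was not used, and transcript shares were computed from TPM.

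Symbols, types and positions came from GENCODE M21 on GRCm38, matched by identifier without version, which named 42462 of 43346 genes and left 884 without a symbol. Rows of 96 spike-ins, 26248 numbered entries and the phiX control were left out of gene counts. Depth was 32103374 and 38977618 expected counts, with no molecular identifiers, so the precision of amplified counts covers counting only. Each value is given per library, with mean and SD over 2 libraries and no test. Ratios used log2(TPM + 1). Promoters came from RefSeq, and copies from a BLAST search of GENCODE M21 transcripts. edgeR 4.0.16 in R 4.3.3 gave scaling factors for an alternative only. Other steps used Python 3.11.15, numpy 2.4.6, pandas 2.3.3, biopython 1.88 and matplotlib 3.10.9. Only the calls of detection and of a 2-fold difference were tested on simulated counts, whose spread was that of counting alone.

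Named were all 10 enzyme genes, the paired enzymes, the 4 highest genes of each list by mean TPM, genes with 0 counts in both libraries, the 3 nearest genes to Sod1 and to Prdx3, and copies of the enzyme genes, except 1 gene that is not reported here. Txnrd1, Txnrd2, Srxn1, Gss, Gclm, Gsr, Nfe2l2, Keap1, G6pdx and Pgd were named for their role, some after their values were seen. The genes and lists were chosen with earlier results of these data known. Alternatives changed the pseudocount, the length adjustment, the scaling, the filter, the compartment of Prdx5 and the library left out.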

Additional observations from a re-analysis of the deposited data

How the results depend on the processing

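The cytosolic share of cytosolic and mitochondrial TPM (82.1%) was 89.7% with Prdx5 counted as cytosolic, 88.9% with Prdx5 left out, 73.0% on expected counts and 73.2% with Sod1 left out, the last chosen after seeing the data, and 78.3% to 85.9% with 1 library left out. On expected counts, the mean log2 ratio was 1.00 for Sod1 over Sod2, 0.54 for Prdx2 over Prdx3 and -0.46 for Gpx1 over Cat, lengths no longer being adjusted for. With 1 library left out the log2 ratios ran from 3.001 to 4.48 for Sod1 over Sod2, 0.30 to 1.41 for Prdx1 over Prdx3, 0.66 to 0.96 for Prdx2 over Prdx3, -0.12 to 1.36 for Prdx6 over Prdx5, 0.14 to 2.24 for Gpx1 over Cat, -0.85 to 1.07 for Txn1 over Txn2 and -3.33 to 0.01 for Txnrd1 over Txnrd2, and the coding share of transcripts from 88.8% to 91.1%. The count of enzyme genes over 2-fold apart was 7 with spike-in scaling and 6 when centred on the median gene, the latter chosen after seeing the data, against 4. With the length of Sod2 from GENCODE M21, also chosen after seeing the data, Sod1 over Sod2 was 4.35 and still exceeded 2 SD. In all, 8 recomputed values moved by more than 1 SD or 1.5 times and 49 did not. The latter include the values with 1 library left out, the count of 6, 10 of 10 enzyme genes detected under each limit, and 30 to 37 of the 60 partner genes. With 2 libraries, leaving 1 out always moves a mean by less than 1 SD. Those values could therefore not be counted as moved, even where the ratio changed sign. Each enzyme gene had at least 1673 counts in each library. No paired analysis was possible because both libraries belong to 1 group.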
